A study of Mus musculus with 6 samples.

Results

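The genes described here make retinoic acid, break it down or carry its signal into the nucleus, and they were followed in dissected outer heart tissue (epicardium with subepicardium) of E16.5 mouse embryos. The 10 members were chosen by role: Rdh10, Dhrs3, Aldh1a2 and Aldh1a1 for synthesis, Cyp26a1 and Cyp26b1 for breakdown, and Rara, Rarb, Rarg and Rxra as receptors. All 10 were found once among the 14549 genes of the table. The dKO group comprised 3 libraries from embryos of genotype Meis1fl/fl;Meis2fl/fl;WT1-Cre, in which both Meis genes were to be removed in cells with WT1-Cre activity, so that other cells of the dissected tissue keep them. The control group comprised 3 libraries labelled wild-type, and the labels do not say whether these embryos carried floxed alleles or the Cre. RNA of 2 epicardia of the same genotype was pooled for every library, which leaves the variation from heart to heart unmeasured. Libraries keep the numbers of their titles, dKO 1, 2 and 3 and control 1, 2 and 4.

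Retinoic acid is made from vitamin A (retinol) in a pair of oxidation steps, a reversible one to retinaldehyde and an irreversible one to the acid. It binds nuclear receptors of the RAR family, which sit on DNA with an RXR partner, and it is cleared by hydroxylases of the CYP26 family. In the embryonic heart the epicardium, the outer mesothelial layer, is a known site of Aldh1a2 expression. Meis1 and Meis2 encode homeodomain transcription factors and are themselves known to be raised by retinoic acid in the limb and other embryonic tissues.

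Values are normalised read counts, close to reads per 1e6 reads, and libraries held 13146322 to 20635676 recovered reads over the genes of the table. Each log2 change is dKO minus control after adding 1 to every value, which makes changes of low genes look smaller than they were, and each adjusted p is from limma over all 14549 genes, with a threshold of 0.05. Meis2, a target of the deletion, had 44.5, 34.8 and 44.5 in dKO 1, 2 and 3, against 86.1, 85.6 and 63.3 in control 1, 2 and 4 (log2 change -0.90, SE 0.16, limma adjusted p = 0.00352). Meis1 had 58.5, 74.1 and 65.0 in dKO libraries, against 106, 63.6 and 63.4 in control libraries (log2 change -0.20, SE 0.20, limma adjusted p = 0.521), so the Meis1 groups overlapped. Both values cover whole genes and do not measure the deleted part. Epicardial markers were lower for 14 of 15 genes in dKO libraries, with a summed level of 485 to 615 in dKO and 2462 to 3594 in control libraries. Cardiomyocyte markers were higher for 14 of 15 genes, with a summed level of 24155 to 27706 in dKO and 4602 to 10295 in control libraries. Control 1 stood apart among the controls with the highest epicardial sum and the lowest cardiomyocyte sum.

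Of the 10 retinoic acid genes 6 fell and 1 rose in dKO libraries, and 3 did not pass. Among all genes 22.0% passed, 12.2% lower and 9.81% higher in dKO. The member that rose, Cyp26a1, rested on few reads, and its call was lost whichever library was left out. All 4 genes of the synthesis group fell, including Dhrs3, whose enzyme runs the first step backwards, the pair of breakdown genes went in opposite directions, and of the 4 receptors Rarg alone passed, downward. The median log2 change was -1.997 for the synthesis group with Dhrs3 and -0.44 for the receptors, against 0.0016 over all genes. The 3 dKO libraries did not overlap the 3 control libraries for any of the 10 members, 8 of them lower and 2 higher in dKO, while 40.4% of all genes had groups that did not overlap (21.1% lower and 19.3% higher in dKO). The exact two-sided permutation p was 0.1 for each member, the smallest that 3 against 3 libraries allow.

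**Figure D1:**
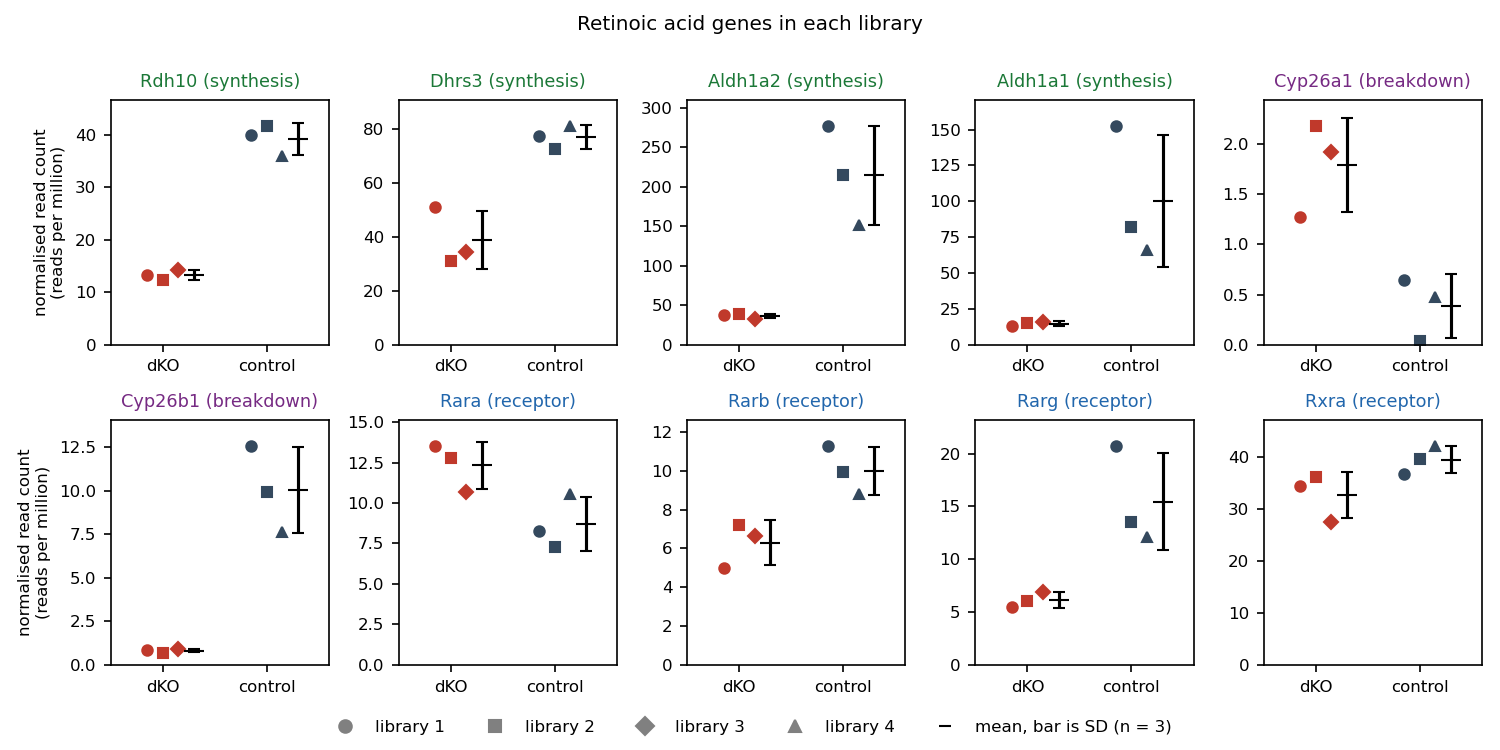
Normalised read count (linear axis from 0) of the 10 retinoic acid genes in each library, dKO on the left and control on the right of each panel. Symbols mark the library number and bars the mean with SD (n = 3); no panel shows overlap between the groups, and control 1 is the highest library for Aldh1a2, Aldh1a1, Cyp26b1, Rarb and Rarg.

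The oxidation of retinol to retinaldehyde was represented by a pair of enzymes that run the step in opposite directions. Rdh10 (GRCm38 chromosome 1, 16105774 to 16133734) encodes the main embryonic retinol dehydrogenase. It had 13.2, 12.2 and 14.2 in dKO 1, 2 and 3, against 39.9, 41.7 and 35.9 in control 1, 2 and 4. The dKO values lay close together at 33.7% of the control mean (13.2 ± 0.955 in dKO and 39.2 ± 2.97 in control, SD, n = 3 each), for a log2 change of -1.50 (SE 0.16, limma adjusted p = 0.000148). Dhrs3 (chromosome 4, 144892827 to 144928209) encodes the reductase that returns retinaldehyde to retinol, and it is known to be induced by retinoic acid. It had 50.9, 31.1 and 34.5 in dKO libraries, against 77.3, 72.7 and 81.2 in control libraries. Dhrs3 thus fell to 50.4% of the control mean, with dKO 1 nearest to the controls, for a log2 change of -1.001 (SE 0.18, limma adjusted p = 0.00332).

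Rdh10 had the larger change of this pair. The log2 ratio of Rdh10 over Dhrs3 was -1.87, -1.28 and -1.23 in dKO 1, 2 and 3, against -0.94, -0.79 and -1.16 in control 1, 2 and 4. The groups did not overlap, though dKO 3 and control 4 lay close together. The difference was -0.50 (exact two-sided permutation p = 0.1, the smallest possible).

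The oxidation of retinaldehyde to retinoic acid is carried out by the retinaldehyde dehydrogenases, which had the largest log2 changes of the 4 synthesis genes. Aldh1a2 (chromosome 9, 71215789 to 71296243), the main enzyme of the early embryo and of the epicardium, had 37.7, 38.2 and 32.7 in dKO 1, 2 and 3, against 277, 214 and 152 in control 1, 2 and 4. The lowest control library was still several-fold above the highest dKO library. Aldh1a2 averaged 36.2 ± 3.06 in dKO and 214 ± 62.6 in control (SD, n = 3 each), 16.9% of the control mean, with a log2 change of -2.49 and an SE of 0.20 (limma adjusted p = 2.68e-05). Aldh1a1 (chromosome 19, 20492715 to 20643465), a related enzyme, had 12.9, 15.2 and 15.9 in dKO libraries, against 153, 82.0 and 65.7 in control libraries. Control 1 was the high library here as well, and Aldh1a1 stood at 14.7% of the control mean in dKO (log2 change -2.60, SE 0.27, limma adjusted p = 0.000127). Without control 1 the log2 changes of Aldh1a2 and Aldh1a1 were -2.29 and -2.25.

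Aldh1a2 and Aldh1a1 had changes of similar size. The log2 ratio of Aldh1a2 over Aldh1a1 averaged 1.25 ± 0.24 in dKO and 1.14 ± 0.26 in control (SD, n = 3 each), a difference of 0.11 with overlapping groups (exact two-sided permutation p = 0.6). Per kilobase of annotated exon, Aldh1a2 held 84.3% ± 2.36 of the summed level of the pair in dKO and 82.8% ± 2.67 in control (SD, n = 3 each). That summed level was 19.3, 19.96 and 17.7 per kilobase in dKO libraries, against 153, 111 and 80.3 per kilobase in control libraries.

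**Figure D2:**
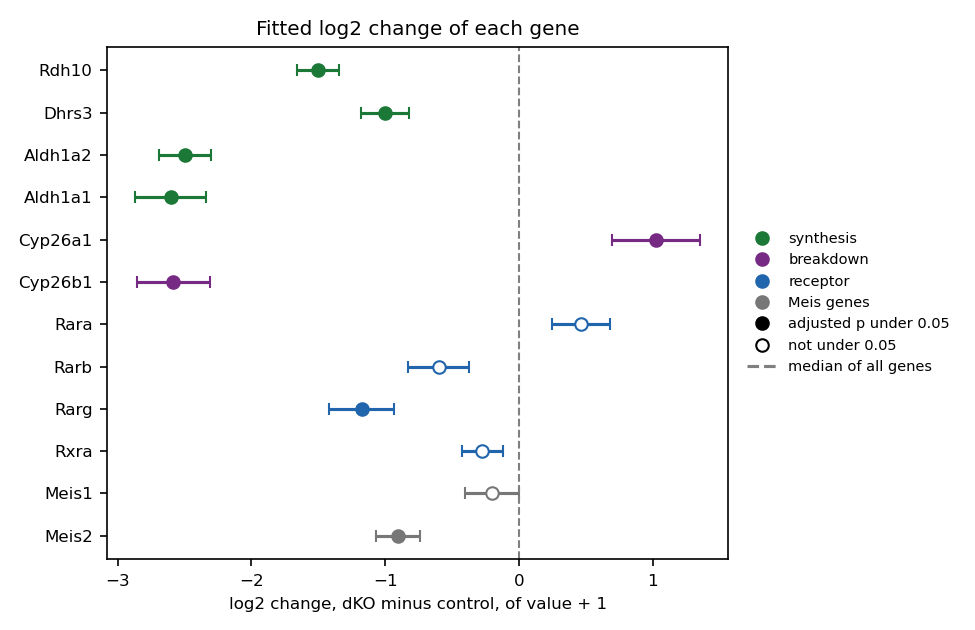
Fitted log2 change (dKO minus control, of the value plus 1) with its SE for the 10 retinoic acid genes and for Meis1 and Meis2. Filled points had an adjusted p under 0.05; synthesis genes lie between -2.60 and -1.001, and Cyp26a1 at 1.03 is the filled point to the right of the all-gene median.

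Aldh1a2 and the epicardial markers were lower together in dKO libraries. The log2 ratio of Aldh1a2 over the median level of the 15 markers in the same library was 0.69, 0.37 and -0.07 in dKO 1, 2 and 3, against 0.37, 0.86 and 0.25 in control 1, 2 and 4. These groups overlapped, and the difference was -0.16 (exact two-sided permutation p = 0.6). The marker at the median level was not the same gene in every library, so this ratio does not compare changes gene by gene. The median of the 15 marker log2 changes was -2.97, a larger fall than the -2.49 of Aldh1a2. The log2 changes of the markers spanned a wide range, from -5.28 for Lrrn4 to -0.12 for Podxl, which did not pass. Upk3b, a mesothelial uroplakin, had 33.3, 57.4 and 59.5 in dKO libraries, against 791, 565 and 489 in control libraries (log2 change -3.61). Wt1, the epicardial transcription factor whose regulatory sequences drive the Cre, had 66.9, 60.1 and 75.9 in dKO libraries, against 235, 157 and 128 in control libraries (log2 change -1.302). Aldh1a2 lay between Upk3b and Wt1 in the size of its change. Lower levels were not particular to epicardial markers. Fibroblast markers were lower for 9 of 10 genes (median log2 change -1.54) and lymphatic markers for 6 of 7 (median -3.42), while mural markers were higher for 7 of 10. None of the 15 epicardial markers was at 0 reads in any library. In whole dissected tissue, fewer cells of a type, less RNA per cell and a larger share of heart muscle in the sample cannot be told apart. With the epicardial marker score as a covariate in limma 0 members passed (0 at an unadjusted p under 0.05), and 1 of 14549 genes did; the dKO and control libraries do not overlap in that score, so the score and the genotype cannot be told apart. With the cardiomyocyte marker score as a covariate 0 members passed as well (5 at an unadjusted p under 0.05; 251 genes passed), and the Aldh1a2 change was -1.55 (limma adjusted p = 0.0651). In that fit the Rdh10 change was -1.41, the Dhrs3 change -1.27, the Cyp26b1 change -1.84, the Aldh1a1 change -0.90 (limma adjusted p = 0.3) and the Rarg change -0.095 (limma adjusted p = 0.971). The cardiomyocyte marker sums did not overlap between the groups either, so this fit cannot tell that score and the genotype apart.

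**Figure D3:**
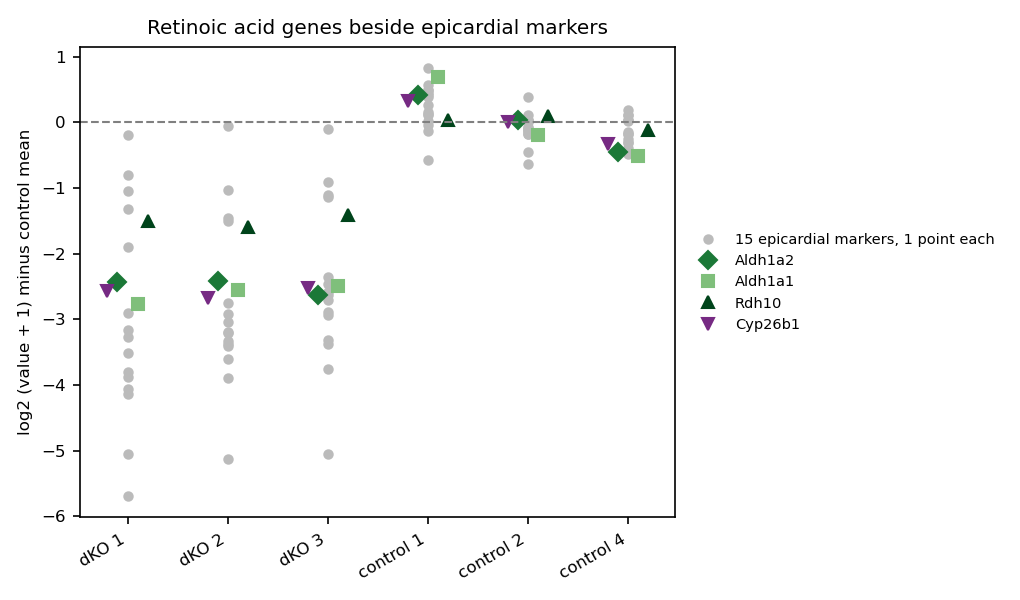
Log2 of the value plus 1, minus the control mean of the same gene, in each library (dKO on the left, control on the right) for 15 epicardial markers and 4 retinoic acid genes. In dKO libraries Aldh1a2, Aldh1a1 and Cyp26b1 sit inside the range of the markers near -2.5, and Rdh10 sits higher, near -1.5.

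The genes of retinoic acid breakdown, Cyp26a1 and Cyp26b1, encode hydroxylases that inactivate it, and they went in opposite directions. Cyp26b1 (chromosome 6, 84571414 to 84593908) had 0.839, 0.703 and 0.901 in dKO 1, 2 and 3, against 12.6, 9.92 and 7.65 in control 1, 2 and 4, which rests on 13, 9 and 18 reads in dKO and 203, 155 and 120 reads in control. It stood in dKO libraries at 8.11% of the control mean (log2 change -2.58, SE 0.27, limma adjusted p = 0.000161, and -3.65 with edgeR on whole reads). Cyp26a1 (chromosome 19, 37697798 to 37701536) had 1.27, 2.18 and 1.92 in dKO libraries, against 0.648, 0.0319 and 0.476 in control libraries. These are 20, 29 and 39 reads in dKO and 10, 0 and 7 reads in control, so the gene was low everywhere. Cyp26a1 rose (log2 change 1.03, SE 0.33, limma adjusted p = 0.0484, and 2.29 with edgeR). That call was lost whichever library was left out (limma adjusted p = 0.0514 to 0.152 over the 6 leave-one-out fits), and also with edgeR (adjusted p = 0.111) and DESeq2 (adjusted p = 0.0634).

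Per kilobase of exon, Cyp26a1 held 80.4%, 89.3% and 85.2% of the summed Cyp26a1 and Cyp26b1 level in dKO 1, 2 and 3, against 12.2%, 0.86% and 14.4% in control 1, 2 and 4. The more abundant paralogue was therefore Cyp26a1 in each dKO library and Cyp26b1 in each control library. The summed level of both was 0.799, 1.23 and 1.14 per kilobase in dKO libraries, against 2.67, 1.87 and 1.67 per kilobase in control libraries. These shares were computed after the values had been seen, and they carry no test. The Cyp26a1 shares in control rest on 10, 0 and 7 reads, and the 0.86% of control 2 comes from the 0.5 added to 0 reads.

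Cyp26b1 and Aldh1a2, the breakdown and the synthesis gene with the higher levels in control tissue, had similar changes on the log2 scale of value plus 1. The log2 ratio of Aldh1a2 over Cyp26b1 was 4.40, 4.53 and 4.15 in dKO libraries, against 4.36, 4.30 and 4.14 in control libraries, a difference of 0.09 with overlapping groups (exact two-sided permutation p = 0.4). This ratio depended on the pseudocount, and the difference was 0.93 with a pseudocount of 0.1 (Cyp26b1 with the larger fall). Among 10903 genes with a mean of 5 or more, compared over the 6 libraries by the root mean square difference of their centred log2 profiles, the nearest to Aldh1a2 were Il18 (0.11), Zfp185 (0.12), Cyp26b1 (0.14), Xdh (0.17) and Serpinb1a (0.18). The nearest to Cyp26b1 were Zfp185 (0.12), Aldh1a2 (0.14), B3gnt7 (0.14), Zbtb7c (0.16) and Fads6 (0.18). This likeness was taken over 6 libraries of only 2 genotypes. It was measured on log2 of the value plus 1, which shrinks the falls of genes that are low in dKO, such as Il18 (1.91 in dKO and 14.4 in control), Xdh (1.24 in dKO and 11.5 in control), B3gnt7 (1.71 in dKO and 14.9 in control) and Cyp26b1 itself. Those genes passed the minimum mean through the control libraries, and no other pseudocount was tried for the ranking, so it is a description and supports no likeness of the changes.

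**Figure D4:**
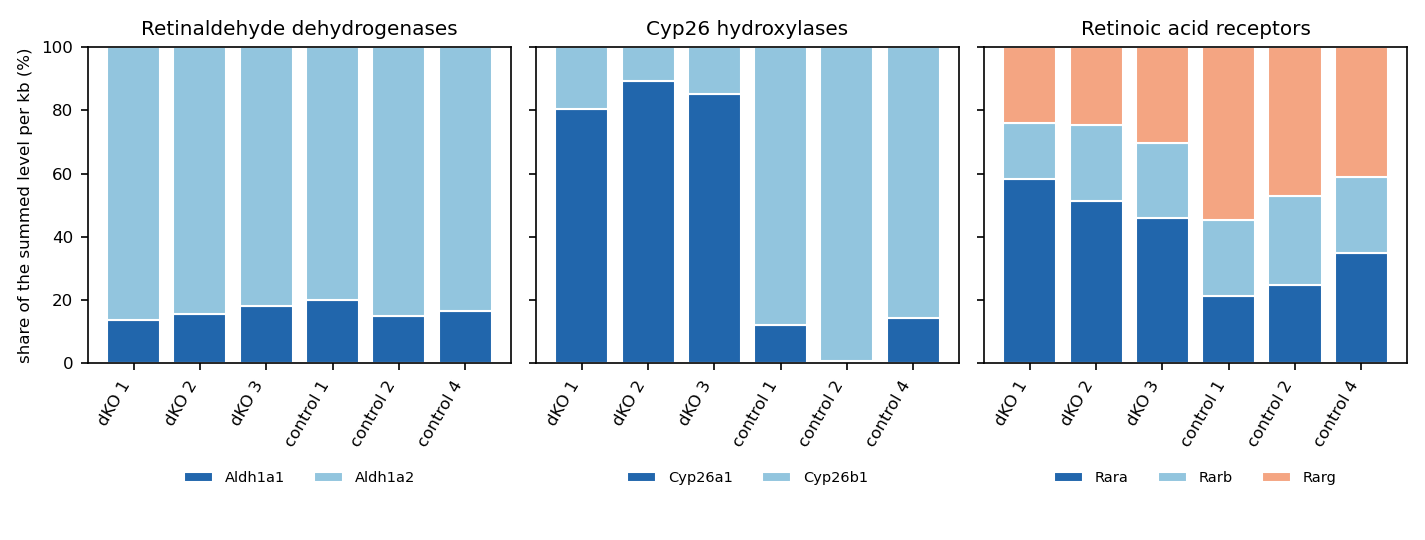
Share (%) of each paralogue in the summed level per kilobase of exon of its group, by library, dKO on the left and control on the right. Aldh1a2 holds 79.8% or more in all 6 libraries, the larger Cyp26 share is Cyp26a1 in dKO and Cyp26b1 in control, and the Rara share is larger in each dKO library than in any control library.

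Of the receptors Rarg alone passed. Rarg (chromosome 15, 102234938 to 102257517), a retinoic acid receptor expressed in mesenchyme and cartilage of the embryo, had 5.44, 6.03 and 6.94 in dKO 1, 2 and 3, against 20.7, 13.6 and 12.1 in control 1, 2 and 4. Rarg fell to 39.7% of the control mean (log2 change -1.18, SE 0.25, limma adjusted p = 0.0073). Without control 1, its highest library, the change was -0.96 (limma adjusted p = 0.0217). Rara (chromosome 11, 98927818 to 98974942), the most widely expressed RAR, was the other member higher in each dKO library, at 13.5, 12.8 and 10.7, against 8.24, 7.31 and 10.6 in control libraries. Its groups nearly touched, at 10.7 in dKO 3 and 10.6 in control 4, and it did not pass (log2 change 0.46, SE 0.22, limma adjusted p = 0.159).

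Rarb (chromosome 14, 16430839 to 16819156) is the receptor gene best known as a direct target of retinoic acid. It had 5.004, 7.21 and 6.65 in dKO libraries, against 11.3, 9.92 and 8.79 in control libraries, and did not pass (log2 change -0.60, SE 0.23, limma adjusted p = 0.0906). Other genes cover 38.4% of its exonic bases, most of that Top2b on the opposite strand, and the library kit is not stated to keep strand. Top2b, a DNA topoisomerase gene, was far higher, at 278 ± 32.4 in dKO and 277 ± 21.0 in control (SD, n = 3 each), so reads counted for Rarb could include some of Top2b. Rxra (chromosome 2, 27676440 to 27762957), which encodes the common partner of the RARs, had 34.3, 36.1 and 27.6 in dKO libraries, against 36.8, 39.5 and 42.1 in control libraries. Rxra did not pass either (log2 change -0.27, SE 0.15, limma adjusted p = 0.231). The genes nearest to Rxra in profile were Susd6 (0.040), Taf1a (0.046), Pmepa1 (0.056), Tnfrsf1b (0.057) and Fam3a (0.057), on the same scale as above.

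The makeup of the RAR family differed between the groups. These shares, too, were computed after the values had been seen. Per kilobase of exon, Rara held 58.2%, 51.2% and 45.9% of the summed RAR level in dKO 1, 2 and 3, against 21.2%, 24.8% and 34.9% in control 1, 2 and 4. Rarg held 24.0%, 24.8% and 30.5% in dKO libraries, against 54.7%, 47.2% and 41.0% in control libraries. The leading receptor gene was thus Rara in each dKO library and Rarg in each control library, while the summed level was 5.46 ± 0.217 per kilobase in dKO and 7.52 ± 1.19 per kilobase in control (SD, n = 3 each). The log2 ratio of Rarb over Rara averaged -0.88 ± 0.35 in dKO and 0.19 ± 0.37 in control (SD, n = 3 each). Its groups did not overlap, and the difference was -1.06 (exact two-sided permutation p = 0.1, the smallest possible). The Rarb values in these shares, in the summed level and in this ratio could include reads of Top2b, as given above.

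Between genes, levels per kilobase of exon set Aldh1a2 at the top of both groups. In dKO libraries Aldh1a2 had 16.0 ± 1.35 and Dhrs3 13.3 ± 3.63 per kilobase (SD, n = 3 each), a gap within their spread. Rxra followed at 5.99, then Rdh10 at 3.17, Aldh1a1 at 2.97 and Rara at 2.82, and the last 3 did not differ beyond their spread. Rarg at 1.44, Rarb at 1.19, Cyp26a1 at 0.905 and Cyp26b1 at 0.152 per kilobase closed the dKO order. Rarb was not separated from Rarg or from Cyp26a1 beyond their spread, and its level could include reads of Top2b in both groups. In control libraries Aldh1a2 had 94.7 ± 27.7 per kilobase (SD, n = 3), well above Dhrs3 at 26.3 and Aldh1a1 at 20.3 ± 9.36, which did not differ beyond their spread. Rdh10 came next at 9.42, then Rxra at 7.23 and Rarg at 3.63 per kilobase. Rara at 1.995, Rarb at 1.90 and Cyp26b1 at 1.88 per kilobase in control libraries could not be ordered, and Cyp26a1 was last at 0.194.

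Rarb and Cyp26a1 carry the textbook retinoic acid response element in their promoters, and it is shown because theirs were the member windows in which it was found. The element is a direct repeat of a hexamer with 5 bases between the copies. The hexamers searched were AGGTCA as the consensus, AGTTCA as in Cyp26a1, GGTTCA as in Rarb and lastly GGGTCA. It was searched on both strands of RefSeq promoter windows (GRCm38.p6), each with 250 bases before and 50 after a start site. Of 32851 windows, 0.0974% held it, and 0.588% held such a repeat with 1, 2 or 5 bases between. The members had 17 windows for 9 of the 10 genes (all but Rdh10), and 2 windows held a repeat, both with 5 bases between. The letters searched were taken from known elements, those of Rarb and Cyp26a1 among them, so finding them there is no result, and nothing is read from these shares. In the lines below it is read on its own strand, hexamers in capitals.
Rarb: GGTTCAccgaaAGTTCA
Cyp26a1: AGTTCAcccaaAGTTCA

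The Rarb element began 53 bases before the start site and read along the gene, and the Cyp26a1 element, which read against the gene, had its farthest base 32 bases before the start site. Below are both whole windows, with that of Aldh1a2, in which no repeat was found. Capitals mark the repeat and the hexamer TGACAG, the core bound by Meis proteins, which was found by letters in 19.2% of all windows and in 4 of the 17. One of these lies in the Rarb window, beginning at base 2 of the transcript, and the others lie in windows of Aldh1a1 (2) and Rara (1). The Rarb window lies at a start site inside the annotated gene. The windows are Rarb chr14:16575427-16575726 on the minus strand, Cyp26a1 chr19:37697558-37697857 on the plus strand and Aldh1a2 chr9:71215539-71215838 on the plus strand. A match of letters is a description of the window and not a measured site.
Rarb: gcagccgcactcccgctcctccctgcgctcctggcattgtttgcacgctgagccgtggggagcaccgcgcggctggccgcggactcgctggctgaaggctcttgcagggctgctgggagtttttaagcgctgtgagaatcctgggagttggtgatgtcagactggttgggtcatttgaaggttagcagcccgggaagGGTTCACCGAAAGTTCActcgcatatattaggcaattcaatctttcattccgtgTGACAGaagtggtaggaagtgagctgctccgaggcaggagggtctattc
Cyp26a1: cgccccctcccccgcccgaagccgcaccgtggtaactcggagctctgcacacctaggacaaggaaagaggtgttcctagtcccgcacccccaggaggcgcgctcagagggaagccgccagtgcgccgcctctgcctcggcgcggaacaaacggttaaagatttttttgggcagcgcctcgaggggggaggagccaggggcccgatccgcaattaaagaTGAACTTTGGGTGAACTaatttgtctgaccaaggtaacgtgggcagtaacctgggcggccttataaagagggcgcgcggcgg
Aldh1a2: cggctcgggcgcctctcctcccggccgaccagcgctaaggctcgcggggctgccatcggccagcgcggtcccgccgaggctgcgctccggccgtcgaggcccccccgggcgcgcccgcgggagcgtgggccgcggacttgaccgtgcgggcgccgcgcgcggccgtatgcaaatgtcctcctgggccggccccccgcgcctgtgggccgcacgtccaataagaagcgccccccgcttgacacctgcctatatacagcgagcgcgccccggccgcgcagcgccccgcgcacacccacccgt
Beside these windows, Rarb did not pass with a downward change (-0.60), Cyp26a1 was called upward (1.03) from very few reads, and Aldh1a2 fell (-2.49). Dhrs3, also known as a retinoic acid target, had 3 windows with no repeat and a log2 change of -1.001.

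Beyond the members, 48 of 75 listed genes of the pathway were in the table, and 11 of these fell and 4 rose, with a median log2 change of -0.29 (over all genes 12.2% were lower and 9.81% higher in dKO, with a median of 0.0016). The listed genes include Meis1 and Meis2, the targets of the deletion, and Meis2 is among those that fell. Of the 3 measured retinoid carrier genes 1 fell and 1 rose. Rbp4, which encodes the retinol carrier of plasma, rested on 0, 2 and 0 reads in dKO libraries, against 47, 98 and 35 reads in control libraries (log2 change -2.07, limma adjusted p = 0.00283). Rbp7, a cellular retinoid-binding protein gene expressed in endothelium and fat of the adult, rose to 4.12 in dKO, against 1.04 in control (log2 change 1.33, limma adjusted p = 0.00814). Fabp5, which can carry retinoic acid, did not pass (-0.42).

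Of 13 other measured enzymes of retinol and retinaldehyde 4 fell and 1 rose, with a median of -0.29 (over all genes 12.2% were lower and 9.81% higher). All those that fell were low in control tissue. Aldh1a3, the remaining retinaldehyde dehydrogenase of the Aldh1a family, had 0.0932, 0.925 and 0.755 in dKO libraries, against 2.995, 4.69 and 5.81 in control libraries (log2 change -1.80, limma adjusted p = 0.00456). Dhrs9, a retinol dehydrogenase of epithelia, rested on 0, 0 and 2 reads in dKO, against 131, 61 and 42 reads in control (log2 change -2.37, limma adjusted p = 0.0016). Adh1, an alcohol dehydrogenase that can oxidise retinol, rested on 0, 2 and 0 reads in dKO, against 51, 28 and 18 in control (log2 change -1.45, limma adjusted p = 0.013, and 0.059 without control 1 and dKO 1). Rdh12, which acts on retinaldehyde in the retina, had a log2 change of -1.39 (limma adjusted p = 0.00991). Rdh13, a mitochondrial member of the family, had 32.5, 30.7 and 32.3 in dKO libraries, against 20.3, 24.9 and 19.9 in control libraries (log2 change 0.54, limma adjusted p = 0.0315). The Rdh13 call held without control 2 and was lost without any other library (limma adjusted p = 0.0696 to 0.106).

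Cofactors and remaining receptors showed no call by limma. Of 10 measured genes 0 passed with limma, edgeR or DESeq2, against 22.0% of all genes with limma. An unadjusted limma p under 0.05 was found for 3 of them, and their median log2 change was 0.0054. The 3 with the highest level were the corepressor gene Ncor1 (144 in dKO and 140 in control, log2 change 0.04), the coactivator gene Ncoa2 (59.6 in dKO and 61.0 in control, -0.03) and the coactivator gene Ncoa3 (45.7 in dKO and 51.4 in control, -0.19).

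Of 22 measured genes known to be induced by retinoic acid in embryos or cell lines 6 fell and 2 rose, with a median of -0.48. Among all genes 12.2% were lower in dKO, and the share of the list that rose lay near the 9.81% of all genes. The largest falls were those of Osr1, a transcription factor gene of mesoderm, and Rarres2, which encodes the secreted chemerin. Osr1 had 2.08, 2.03 and 1.63 in dKO 1, 2 and 3, against 82.96, 22.95 and 23.4 in control 1, 2 and 4 (log2 change -3.65, limma adjusted p = 0.000322). Rarres2 had 27.7, 31.4 and 33.5 in dKO libraries, against 208, 222 and 230 in control libraries (log2 change -2.80, limma adjusted p = 1.87e-06), and 33.6% of its exonic bases overlap Lrrc61. Nr2f2, an orphan receptor of veins and mesenchyme, had a log2 change of -0.92 (limma adjusted p = 0.00741). Meis2 is counted among the 6 falls although it is a target of the deletion. Hoxa2 had 0.155, 0.703 and 0.365 in dKO libraries, against 8.12, 2.07 and 2.19 in control libraries (log2 change -1.69, limma adjusted p = 0.0201), and it was lost without dKO 1 or dKO 3 (limma adjusted p = 0.0582 and 0.0588).

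Igf2, a growth factor gene, had 2799, 3653 and 4152 in dKO libraries, against 6479, 6494 and 5593 in control libraries (log2 change -0.82, limma adjusted p = 0.0413). Other annotated genes share 64.5% of the exonic bases of Igf2, and its call was lost whichever library was left out (limma adjusted p = 0.0582 to 0.107). Gata4, a cardiac transcription factor gene, rose to 182 in dKO, against 117 in control (log2 change 0.65, limma adjusted p = 0.0099). Tbx5, a cardiac and limb transcription factor gene, had 16.3, 15.1 and 17.8 in dKO libraries, against 13.9, 6.16 and 6.25 in control libraries (log2 change 0.92, limma adjusted p = 0.0448). The Tbx5 call held without control 1 and was lost without any other library (limma adjusted p = 0.09 to 0.136) and with edgeR (adjusted p = 0.0767). Cardiomyocytes also express Gata4 and Tbx5, and the cardiomyocyte marker sums given above were higher in each dKO library. With the cardiomyocyte marker score as a covariate the Gata4 change was 0.23 (limma adjusted p = 0.841) and the Tbx5 change was 2.48 (limma adjusted p = 0.0373). Those marker sums did not overlap between the groups, so the fit cannot tell the score and the genotype apart. The cause of either rise was not tested.

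**Figure D5:**
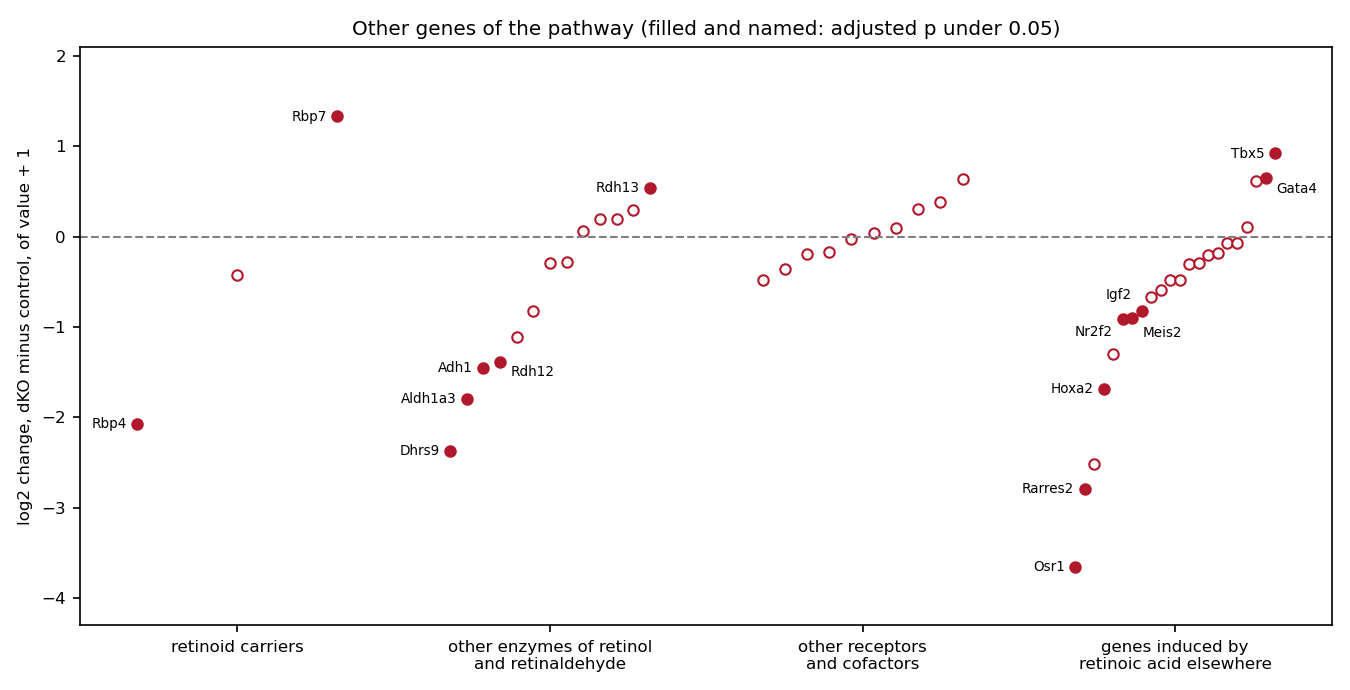
Log2 change (dKO minus control, of the value plus 1) of 48 other genes of the pathway in 4 lists. Filled, named points had an adjusted p under 0.05 (11 lower, 4 higher), and the list of other receptors and cofactors has none.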

How the data were processed

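Polyadenylated RNA from 6 pools was sequenced, per the labels' protocols, with libraries made from 40 ng of total RNA. Per the submitters' processing notes, cutadapt and RSEM 1.3.1 were used with GRCm38; the annotation, normalisation and gene filter were not stated in the labels. Values as deposited are a normalised signal on a linear scale. Divided by a constant of its library, each of the 87294 values came to whole reads plus 0.5, within 0.01 reads, so whole reads were recovered. The number of recovered reads limits precision for low genes. No gene fell under a filter of 1 in at least 3 libraries.

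Limma 3.58.1 (R 4.3.3, trended variances) was fitted to log2 of the value plus 1 for dKO against control over 14549 genes, with two-sided p-values adjusted by Benjamini-Hochberg. Exact permutation tests were run for ratios. edgeR 4.0.16 and DESeq2 1.42.0 were run on whole reads as alternatives, with other pseudocounts, filters, scalings, covariates, a block and left-out libraries. The fit was tested on simulated data of 14240 genes, where 41 of 98 genes changed 2-fold and 82 of 95 changed 4-fold were recovered and 15 unchanged genes were called. Gene positions and exonic lengths (the union of exons) came from GENCODE M21, where 14530 of 14549 identifiers were found. Levels per kilobase use that length, which may differ from the length RSEM used.

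The members, gene lists and tests were chosen with earlier results of these data known. Named genes were the 10 members, the Meis pair, each listed pathway gene that passed (the 3 highest where none did) and the 5 nearest profiles of the most abundant member of each role, predicted genes left out. The result of 1 listed gene is not reported here. Marker lists of other cell types were checked in the same fit. Fibroblast markers were lower for 9 of 10 genes and higher for 0, mural 0 and 7 of 10, endothelial 1 and 0 of 10, lymphatic 6 and 0 of 7, macrophage 3 and 0 of 8, erythroid 0 and 0 of 5, and Schwann 0 and 0 of 2 measured. Of 6 markers of lung, liver and thymus 0 were among the genes of the table used here.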

Additional observations from a re-analysis of the deposited data

How the results depend on the processing

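The 6 falls (Rdh10, Dhrs3, Aldh1a2, Aldh1a1, Cyp26b1 and Rarg) kept their calls in each fit that left out 1 library, with control 1 and dKO 1 left out together, under each pseudocount, filter and scaling, with edgeR and DESeq2, and with the log2 ratio of Ddx3y over Xist as a covariate for the sex of the pools, which differed within both groups (added after seeing the data). The exceptions were the replicate block (Dhrs3, -0.89, limma adjusted p = 0.0545) and the marker scores. The rise of Cyp26a1 held with quantile normalisation, no variance trend and without control 1 and dKO 1 together. The fit with no filter was the same as the main fit, since no gene fell under the filter, and it is no separate check. Retinoic acid genes called higher numbered 0 with a pseudocount of 0.1 or 5, the filter at 5 (which removed Cyp26a1), the replicate block, edgeR, DESeq2, the Ddx3y over Xist covariate and each fit that left out 1 library.

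Numbers 1 and 2 occur in both groups. With the number as a replicate block, a fit with 1 residual degree of freedom, 1360 genes changed (780 lower, 580 higher), 5 members were lower, and 7 other pathway genes were lower and 0 higher. Same-numbered libraries deviated with correlations of -0.181 (number 1) and -0.204 (number 2). The labels do not say whether the numbers pair the pools, and correlations over so few libraries cannot settle it. With the filter at 5, 5 other pathway genes were lower, since fewer low genes were tested. The fits leaving out 1 library gave 898 to 1262 genes higher and 2 to 5 other pathway genes higher.

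With the cardiomyocyte score as a covariate 251 genes changed (193 lower, 58 higher), 0 members in either direction, and 1 other pathway gene was lower and 2 higher; Meis2 was at -0.60, Meis1 at 1.002 and Hoxa2 at 0.78. With the epicardial score 1 gene changed (1 lower, 0 higher), 0 members and 0 other pathway genes; signs turned, without a call, for Aldh1a1 (1.63), Rara (-1.01), Rarb (1.21), Rarg (1.90), Meis1 (2.44), Meis2 (0.12), Hoxa2 (3.65), Gata4 (-0.13), Dhrs9 (1.598), Osr1 (1.14), Igf2 (1.36) and Adh1 (0.89). The cause was not tested. Meis1 was at 0.045 without control 1, at 0.13 without control 1 and dKO 1, and at -0.32 to 0.045 over the fits that left out 1 library. The Aldh1a2 over Cyp26b1 difference was 0.93 with a pseudocount of 0.1. On whole reads edgeR called 2956 genes and DESeq2 3621. Among the members depth limits Cyp26a1 most, with 88 reads in all dKO and 17 in all control libraries.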
